A study of Homo sapiens with 27 samples.

Results

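Translational efficiency (TE), the ratio of a gene's ribosome footprints to its mRNA, was compared between thapsigargin-treated and untreated cycling IMR90, a line of fibroblasts from normal human fetal lung. Every protein-coding Ensembl gene present in both gene lists of the files entered, which gave 19310 of 60534 IDs, and 11715 of them passed the filter on low counts in both library types and were tested. The other 7595 were too sparse to test. Ribosome profiling (Ribo-seq) sequences the mRNA stretches that ribosomes shield from RNase, and RNA-seq of the same kind of lysate gives the mRNA. The comparison used 9 of the 27 libraries directly: 2 RNA-seq and 3 Ribo-seq libraries of untreated cycling cells, and 2 of each type from cycling cells given 25 nM thapsigargin for 3 h. Untreated cells were harvested, and treated cells given the drug, at 40 to 60% confluency, and the labels name no genetic change in either. The labels name antibiotics in the medium of the untreated cells and not in that of the treated cells, so treatment and medium cannot be told apart. Whether libraries of a group came from separate cultures is not stated, so p-values measure the spread between libraries, which may be technical. Unless stated otherwise, that spread was estimated from all 27 libraries of the series and not from these 9 alone. The others are RNA-seq and Ribo-seq libraries of 3 states without thapsigargin. They are contact-inhibited quiescent cells and cells made senescent by 15 Gy of ionising radiation or by 50 uM etoposide, both over 10 days. All results come from 1 cell line.

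Thapsigargin blocks the calcium pump of the endoplasmic reticulum (ER), and the emptied calcium store disturbs protein folding there. The kinase PERK then phosphorylates the initiation factor eIF2, which lowers initiation on most mRNAs. A few mRNAs carry short open reading frames upstream of the main one (uORFs) that hold ribosomes back in unstressed cells and let more of them reach the main frame when eIF2 is phosphorylated, ATF4 and PPP1R15A among them. Other classes of mRNA are read under rules of their own. Those of ribosomal proteins and elongation factors begin with a cytosine and a run of pyrimidines, the TOP motif, which answers to the kinase mTOR. Those of secreted and membrane proteins are translated at the ER surface. Scaling sets the typical ratio change near 0, so a fall in translation shared by all mRNAs could not be seen here, and a rise or fall below is relative to the other genes.

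The 9 libraries held from 1.94 M to 57.1 M gene counts (M, mega, the SI prefix). Treated Ribo-seq was the shallowest group, at 1.94 M and 2.04 M against 9.87 M to 14.4 M in cycling Ribo-seq. It also stood apart in mapping: 65.2 to 66.9% of its reads mapped to several places, against 26.5 to 31.9% in cycling Ribo-seq, and 11.3 to 12.6% of its uniquely mapped reads fell outside genes, against 1.42 to 1.73%. Treated RNA-seq had 1.35 to 1.40% unmapped reads, against 31.3 to 32.1% in cycling RNA-seq. Treated Ribo-seq and all RNA-seq libraries were counted on a list of 62703 gene IDs, and cycling Ribo-seq on a list of 60664. Every ratio change below crosses these differences, so treatment, library preparation and gene list cannot be told apart. The 9 fibroblast markers were above 1 CPM (counts scaled to 1 M gene counts) in every library. Of 5 epithelial markers, KRT5 and KRT14 were at 0 in every library, while the sum of the list was 15.0 to 20.9 CPM in cycling and 90.3 to 96.9 CPM in treated RNA-seq, and 23.4 to 40.8 and 142 to 143 CPM in Ribo-seq. In treated Ribo-seq EPCAM and CDH1 were at 0 as well, so its sum was KRT19 alone. In each group only 1 of the 5 markers was above 1 CPM in all libraries. The part of these markers in the results was not tested. The sum of the blood list was at most 0.137 CPM.

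Treatment changed the ratio of 2430 genes (20.7% of those tested; edgeR adjusted p under 0.05), with 922 higher (7.87%) and 1508 lower (12.9%). Of these, 510 rose and 1199 fell at least 2-fold. Counts of calls in the gene lists below are to be read beside the shares of 7.87% and 12.9%. The median change over all genes tested was -0.15 on the log2 scale, and the middle of the range, from the lower to the upper quartile, ran from -0.74 to 0.32. Most calls had a footprint part: footprints were up in 896 of the 922 higher genes and down in 1474 of the 1508 lower genes. The mRNA part was down in 632 of the higher genes and up in 818 of the lower ones. Calls were made on footprints against mRNA, so the selection itself favours these directions. Over all genes tested, the median log2 change was -0.05 for mRNA and -0.15 for footprints. The split of calls depended on scaling and level. With DESeq2 size factors in edgeR there were 1145 higher and 1285 lower genes, with DESeq2 itself 1397 higher and 1514 lower (48.0% of calls higher, against 37.9%), and with a minimum mean of 5 CPM (from here on after TMM scaling) in both library types 1005 higher and 911 lower (52.5%). A fit to the 9 libraries alone called 1053 genes, a fit without cycling RNA-seq replicate 1 called 1557, and a fit without treated Ribo-seq replicate 2 called 3769.

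**Figure D1:**
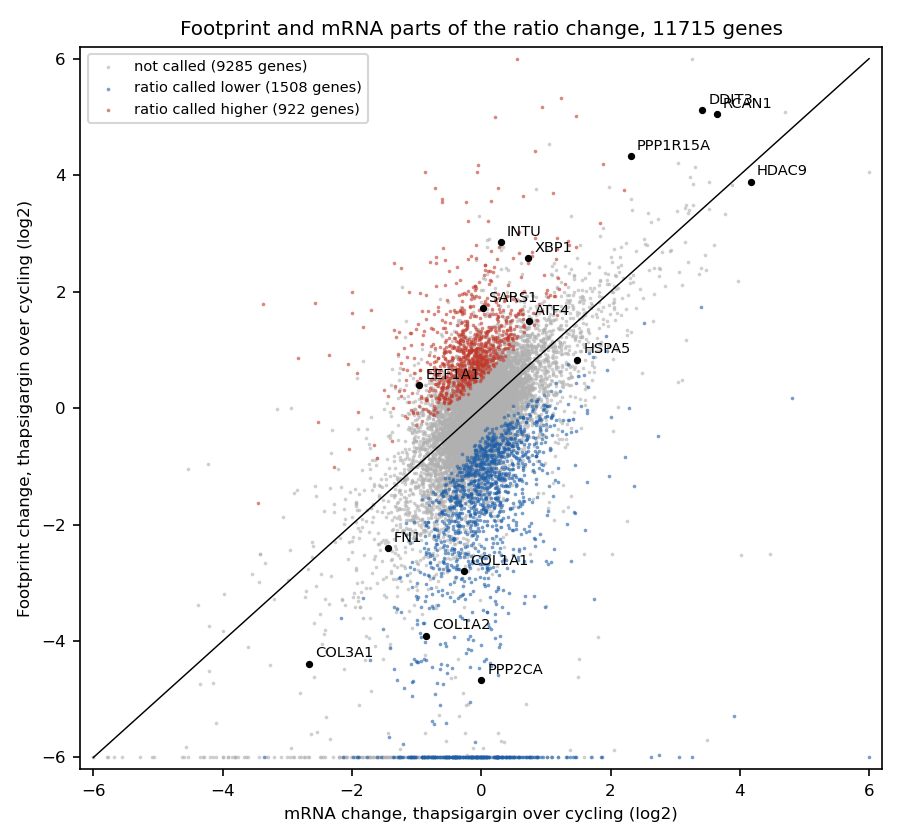
Each point is 1 of the 11715 genes tested, with the log2 change of mRNA on the x axis and of footprints on the y axis, thapsigargin over cycling, held at -6 and 6; red and blue mark ratios called higher (922) and lower (1508), and the line marks no ratio change. DDIT3, RCAN1 and PPP1R15A lie at the upper right above the line, COL1A1 and COL1A2 far below it, and HDAC9 and HSPA5 close to it; the row of points at -6 is mainly genes with no footprint in treated cells.

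The mRNAs known to be controlled by uORFs in the integrated stress response gave 5 higher and 2 lower calls among 15 tested of 16 listed, with a median log2 ratio change of 0.21; without cycling RNA-seq 2, treated RNA-seq 2 or treated Ribo-seq 1 there were 3 higher calls. The fit to the 9 libraries alone left 2 higher calls, those of PPP1R15A and DDIT3. PPP1R15A, the regulatory subunit (GADD34) that brings a phosphatase back to eIF2, had 108 and 104 CPM of mRNA in cycling cells and 489.8 and 562 in treated cells. Its footprints were 56.2, 39.6 and 67.5 CPM in cycling cells and 1135 and 1026 CPM in treated cells. All treated values lay above all cycling values on both sides, and footprints rose by more than mRNA, so that the ratio rose 4.01-fold (log2 2.00 ± 0.26 SE, edgeR adjusted p = 1.33e-05). DDIT3 encodes CHOP, a transcription factor of late ER stress. Its mRNA went from 40.9 and 38.8 CPM to 485 and 369.8 CPM. Its footprints went from 10.6, 11.1 and 15.8 CPM to 385 and 473 CPM, a log2 ratio change of 1.69 ± 0.30 (edgeR adjusted p = 0.000469). ATF4, the central transcription factor of the response, changed by less: mRNA was 569 and 537 CPM in cycling and 951 and 898 CPM in treated cells. Footprints of ATF4 were 178, 173 and 207 CPM against 452 and 588 CPM. The ranges did not overlap, and the log2 ratio change was 0.74 ± 0.18 (edgeR adjusted p = 0.00572), a call lost in the fit to the 9 libraries alone (adjusted p = 0.0614).

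The other higher calls were CREBRF, a regulator of the CREB3 factors, and EPRS1, a tRNA synthetase for glutamate and proline. CREBRF had a log2 ratio change of 0.95 ± 0.27 (edgeR adjusted p = 0.0163), with treated mRNA at 62.3 and 42.3 CPM on either side of the cycling values of 43.1 and 47.6. Its call was lost without cycling RNA-seq replicate 2, treated RNA-seq replicate 2 or treated Ribo-seq replicate 1, with adjusted p up to 0.186. EPRS1 had 0.48 ± 0.15 (adjusted p = 0.0275), a call lost when any of 5 libraries was left out (cycling RNA-seq 1 or 2, treated RNA-seq 2, treated Ribo-seq 1 or 2; adjusted p up to 0.0825). BACE1, the beta-secretase, fell by 1.25 on the log2 scale (adjusted p = 0.0128), a call lost without treated RNA-seq replicate 2 or treated Ribo-seq replicate 1 (adjusted p up to 0.0964). QRICH1, a regulator of the ER stress response, had 108, 119 and 115 CPM of footprints in cycling cells and none in either treated library, at 14.4 and 14.5 against 17.3 and 10.3 CPM of mRNA. Against a floor of 3 counts over both treated libraries, its ratio was at least 142-fold lower. Cycling and treated footprints were counted on different gene lists, so list and treatment cannot be told apart for this gene.

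The remaining 8 uORF-controlled genes were not called. PPP1R15B, the constitutive partner of PPP1R15A, had 73.3, 67.2 and 76.8 CPM of footprints in cycling and 129 and 124 CPM in treated cells, with a log2 ratio change of 0.44 ± 0.22 (edgeR adjusted p = 0.159). ATF5 had 0.56 ± 0.47 and IBTK, an inhibitor of the kinase BTK, 0.21 ± 0.19. CEBPB, a transcription factor made as several isoforms, had mRNA of 46.4 and 49.3 CPM against 131 and 116 CPM and footprints of 84.0, 68.2 and 71.4 CPM against 217 and 219 CPM. Both sides moved together there, and the ratio change was 0.18 ± 0.24. SLC35A4 (0.07), IMPACT (-0.14) and SLC7A1, an arginine carrier (-0.22), lay closer to 0 than their SE. UCP2 had no footprint in treated replicate 1 and 6.63 CPM in replicate 2, and a value of -1.86 ± 0.83, which passed the threshold without treated Ribo-seq 2 (adjusted p = 0.00341). The list thus held called rises, 2 called falls and small or undetermined changes side by side. The fall of QRICH1 rests on no treated footprint and carries the limit of the gene lists given above.

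**Figure D2:**
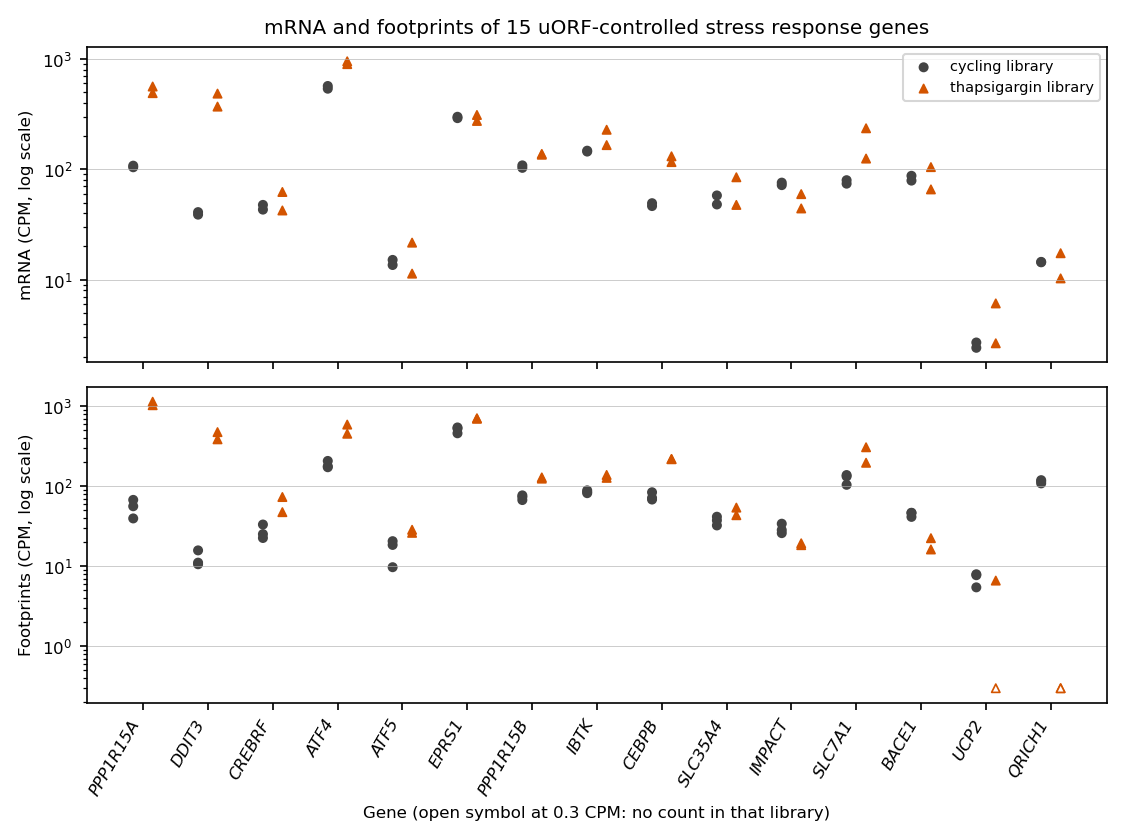
mRNA (top) and footprints (bottom) in CPM on log axes for 15 uORF-controlled genes, ordered by ratio change; grey circles are cycling libraries (2 RNA-seq, 3 Ribo-seq), orange triangles treated libraries (2 of each), and open symbols mark libraries with no count. PPP1R15A and DDIT3 rose on both sides with the larger step in footprints, CEBPB rose by similar steps on both sides, and QRICH1 had no footprint in either treated library.

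Among the eIF2 subunits, eIF2B subunits and eIF2 kinases, 5 of 15 genes were called higher and 1 lower (median 0.10), with 2 higher calls left without cycling RNA-seq 1 or treated RNA-seq 2, 1 higher and 0 lower in the fit to the 9 libraries alone, and a median of -0.08 without treated Ribo-seq 1. EIF2A, an initiation factor distinct from eIF2, had footprints of 88.8, 96.0 and 94.4 CPM in cycling cells and 192 and 189 CPM in treated cells. Its log2 ratio change was 1.27 ± 0.23 (edgeR adjusted p = 0.000571). The 3 subunits of eIF2 itself, EIF2S1 (0.54), EIF2S2 (0.92) and EIF2S3 (0.62), and EIF2B1 (0.52) were called higher, and the amino acid sensing kinase EIF2AK4 was called lower (-0.74 ± 0.20, adjusted p = 0.0133). EIF2A and EIF2S3 stayed called in 9 of 9 fits that each left out 1 library, and EIF2S3 lost its call in the fit to the 9 libraries alone (adjusted p = 0.0709). The call of EIF2S1 was lost without cycling RNA-seq 1, treated RNA-seq 2 or treated Ribo-seq 2, that of EIF2S2 without the same libraries (adjusted p up to 0.169 and 0.0995), and that of EIF2AK4 without treated Ribo-seq 1 (0.0733). That of EIF2B1 was lost without either cycling RNA-seq library, treated RNA-seq 2 or treated Ribo-seq 1 (up to 0.192). EIF2D had the largest fall, -0.81 ± 0.39, and was not called, although a fit without treated Ribo-seq 2 gave -2.63 (adjusted p = 5.61e-06) and DESeq2 also called it.

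The other initiation factors and their regulators gave 6 higher and 1 lower call among 28 (median 0.16), and 3 higher in the fit to the 9 libraries alone. EIF3A, the scaffold subunit of eIF3, had 577, 551 and 569 CPM of footprints in cycling cells and 1965 and 1799 CPM in treated cells. With mRNA at 432 and 440.1 against 372 and 402 CPM, its ratio rose 3.75-fold (log2 1.91 ± 0.19, edgeR adjusted p = 2.57e-07). EIF4H, a partner of the helicase eIF4A, rose by 1.08 ± 0.21 and EIF4E, the cap-binding protein, by 1.00 ± 0.27 (adjusted p = 0.000873 and 0.0123). For EIF4E the footprints hardly moved, at 33.9, 38.4 and 38.3 against 40.3 and 40.8 CPM, while mRNA fell from 92.0 and 86.2 to 61.0 and 37.2 CPM. Its call was lost without treated RNA-seq 2 (adjusted p = 0.0525). EIF4E2 (0.89), EIF3G (0.70) and EIF1B (0.70) were also called higher. The call of EIF3G was lost without cycling RNA-seq 2 or treated Ribo-seq 2 (adjusted p up to 0.0873), and that of EIF1B without cycling RNA-seq 1 or 2, treated RNA-seq 1 or treated Ribo-seq 2 (up to 0.131). EIF4EBP2, which holds back EIF4E, had the only lower call (-1.56 ± 0.27, adjusted p = 0.000317). Among genes of mTOR signalling and cap-binding control, with a median of -0.50 over 21 genes, the kinase AKT2 fell by 1.82 on the log2 scale and MTOR rose by 0.68. The 2 lower calls there, AKT2 and EIF4EBP2, became 4 without treated RNA-seq 1 and 6 without treated Ribo-seq 2. The call of MTOR was lost without cycling RNA-seq 2, treated RNA-seq 1 or treated Ribo-seq 1, where its adjusted p reached 0.317.

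Ribosomal proteins and elongation factors share a pyrimidine tract at the transcript start, and 6 starts are printed to show that genes with this tract did not move in the same way. Each is the first 25 bases from RefSeq (GRCh38.p14), on the strand of the gene and from the start with the longest run, with the leading C and pyrimidines in capitals.
EEF1A1 (chr6:73521008-73521032, minus strand): CTTTTTCgcaacgggtttgccgcca
EEF1B2 (chr2:206159895-206159919, plus strand): CCTTTTTCCTCTCTTCagcgtgggg
EEF2 (chr19:3985439-3985463, minus strand): CTCTTCCgccgtcgtcgccgccatc
NPM1 (chr5:171387849-171387873, plus strand): CTTTCCCTggtgtgattccgtcctg
RPL10 (chrX:154398377-154398401, plus strand): CTCTTTCCCTTCggtgtggtgagta
RPL26 (chr17:8383169-8383193, minus strand): CTCTTCCCTTTTgcggccatcaccg

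Elongation factors and other TOP mRNAs outside the ribosome gave 7 higher and 1 lower call among 18 tested of 20, with a median of 0.38, and 4 higher calls without treated Ribo-seq 1. EEF1B2, an exchange factor for eEF1A with a run of 16 pyrimidines, had 57.1, 46.8 and 46.1 CPM of footprints in cycling and 87.9 and 143 CPM in treated cells. Its mRNA was lower in both treated libraries, at 463 and 413 against 639 and 594 CPM, and the ratio rose by 1.70 ± 0.24 (log2, edgeR adjusted p = 5.46e-05). EEF1A1, which brings aminoacyl-tRNA to the ribosome, showed the same pattern with a run of 7. Its mRNA fell from 18892 and 19451 to 10944 and 8733 CPM, its footprints were 404, 341 and 295 against 448 and 457 CPM, and its ratio rose by 1.35 ± 0.23 (adjusted p = 0.000271). NPM1, a nucleolar chaperone, rose by 1.29 and HNRNPA1, an RNA-binding protein, by 1.59, and the call of NPM1 was lost without treated Ribo-seq 1 (adjusted p = 0.073). EEF2, the translocation factor, had 2562, 2029 and 2425 against 2592 and 2667 CPM of footprints, groups that did not overlap but lay close, and was not called (0.41 ± 0.23, adjusted p = 0.216). EIF4B had the single lower call, -0.86, but gave 0.38 with counts of both strands together and lost the call without any of 5 libraries: cycling RNA-seq 1 or 2, cycling Ribo-seq 3, treated RNA-seq 1 and treated Ribo-seq 2 (adjusted p up to 0.233). EIF3E (0.88), EEF1D (0.68) and NAP1L1 (0.65) completed the higher calls. Those of EEF1D (without cycling RNA-seq 1 or 2, cycling Ribo-seq 2, treated RNA-seq 2 or treated Ribo-seq 1) and NAP1L1 (without any RNA-seq library or treated Ribo-seq 1) were lost, with adjusted p up to 0.0862 and 0.292, that of EEF1D also with both strands counted together (0.919), and that of EIF3E in the fit to the 9 libraries alone (0.0646).

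Cytosolic ribosomal proteins gave 19 higher (25.0%) and 11 lower (14.5%) calls among 76 tested of 79, against 7.87% and 12.9% over all genes tested. Their median ratio change was 0.24, their median mRNA change -0.54 and their median footprint change -0.39. The 11 lower calls became 6 without cycling RNA-seq 2 or treated RNA-seq 1 and 7 without cycling Ribo-seq 1 or 3. RPL10 had 103, 100.0 and 125 CPM of footprints in cycling and 399 and 606 CPM in treated cells, with mRNA of 1262 and 1249 against 1077 and 916 CPM. Its ratio rose by 2.53 ± 0.26 (log2, edgeR adjusted p = 4.67e-07). RPL26, with a pyrimidine run of the same length, 12 bases, moved the other way: footprints were 148, 154 and 187 against 37.1 and 24.0 CPM and mRNA 97.1 and 84.5 against 218 and 178 CPM, for -3.54 ± 0.29 (adjusted p = 8.1e-09). With both strands counted together RPL10 gave -2.35 in place of its rise. The largest rise in the list, RPS28, rested on footprints under 4 CPM in every library, and the largest fall, RPL29, on none in treated cells against 9.67, 8.95 and 13.1 CPM, a ratio at least 8.02-fold lower. Ribosomal protein genes have many near-identical pseudogenes, and reads that map to several places are in no gene's count. Their values, and those of EEF1A1 and HNRNPA1, are therefore uncertain. The share of such reads differed between the groups, and between RNA-seq replicates, as given above.

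Among 9654 tested genes with a start in the RefSeq table, 729 had at least 1 start with C followed by 4 or more C or T. Of all starts in the table, 4.07% were of this kind. That share counts starts and not genes, so it cannot be compared with the number of genes. The median log2 ratio change of the 729 genes was -0.10, with 9.05% called higher and 12.9% lower. That of the 8925 genes without such a start was -0.14, with 8.03% higher and 12.8% lower. The 55 listed ribosomal and TOP genes with such a start had a median of 0.33, with 30.9% called higher and 12.7% lower, and the 17 listed genes without one had -0.04, with 11.8% higher and 23.5% lower. The 674 other genes with such a start had -0.13.

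Cytosolic tRNA synthetases, which charge tRNAs with amino acids, gave 4 higher and 0 lower calls among 19, with a median of 0.24. SARS1, for serine, had 623, 592 and 649.7 CPM of footprints in cycling and 2064 and 2038 CPM in treated cells at level mRNA (355 and 316 against 358 and 329 CPM). The ratio rose 3.23-fold (log2 1.69 ± 0.14, edgeR adjusted p = 1.37e-08), and no fit that left out a library gave less than 1.60. AARS1 (0.91), WARS1 (0.81) and GARS1 (0.61), for alanine, tryptophan and glycine, were the other calls. That of GARS1 was lost in the fit to the 9 libraries alone (adjusted p = 0.0547), and that of AARS1 without cycling RNA-seq 2, treated RNA-seq 1 or treated Ribo-seq 2 (adjusted p up to 0.0905). YARS1 had the largest fall, -0.25, and was not called. Genes of amino acid supply that ATF4 is known to drive gave 2 higher and 1 lower call among 24 (median -0.11). PSAT1, a serine synthesis enzyme, had footprints of 201, 209 and 229 against 564 and 602 CPM and rose by 1.77 ± 0.30 (adjusted p = 0.000243). SLC38A2, a neutral amino acid carrier, rose by 1.04 and GPT2, an alanine transaminase, fell by 1.14; the first call was lost without cycling RNA-seq 1, treated RNA-seq 2 or treated Ribo-seq 2 (adjusted p up to 0.11). ASNS, asparagine synthetase, stayed under 4 CPM in every library and was undetermined (0.24 ± 0.98). CBS had no footprint in treated cells and at most 1.72 CPM in cycling cells.

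Collagens fell furthest of the 30 lists: 8 of 20 tested genes were called lower and 0 higher, 19 of 20 values were below 0, and the median log2 ratio change was -1.80 against -0.15 over all genes. COL1A2, a chain of the main fibrillar collagen, had 8672, 10022 and 10618 CPM of footprints in cycling cells and 609.9 and 693 CPM in treated cells. Its mRNA was 1979.9 and 3548 CPM against 1382 and 1663 CPM. The footprint groups lay far apart, the mRNA groups close, and the ratio was 8.26-fold lower (log2 -3.05 ± 0.47, edgeR adjusted p = 0.000104). COL1A1, the other chain, had 12654, 11580.0 and 12958 CPM of footprints against 1713 and 1856 CPM. Its mRNA overlapped, at 909 and 2208 against 723 and 1861 CPM, with replicate 2 high in both states. The ratio fell by 2.53 on the log2 scale (SE 0.60, adjusted p = 0.00451), a call lost without treated RNA-seq 2 (-1.65, adjusted p = 0.0561).

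COL6A2 (-2.18) and COL6A1 (-1.96), chains of the microfibrillar collagen, stayed called in 9 of 9 fits that left out 1 library, as did COL5A1 (-2.15). The calls of COL18A1 (-2.48) and COL16A1 (-1.86) were lost without cycling RNA-seq 1 or treated Ribo-seq 1 (adjusted p up to 0.082 and 0.0961). In COL3A1 both sides fell. Its mRNA went from 1023 and 1595 to 219.7 and 194 CPM and its footprints from 1634, 2249 and 2154 to 94.7 and 97.3 CPM, for -1.73 ± 0.53 (edgeR adjusted p = 0.023), a call kept in 4 of 9 such fits and lost without cycling RNA-seq 1, cycling Ribo-seq 2 or 3, treated RNA-seq 1 or treated Ribo-seq 1 (up to 0.11). COL13A1, a transmembrane collagen, was the single value above 0 (0.62, not called), and COL15A1 had no footprint in treated cells with mRNA near 1 to 2 CPM there, so that its ratio was at least 2.78-fold lower; it was not called by edgeR over all libraries (adjusted p = 0.169), but was by edgeR in the fit to the 9 libraries alone (0.0342) and by DESeq2 (0.0261). The count of 8 lower collagens became 5 without cycling RNA-seq 1 or treated Ribo-seq 1, and 12 in the fit to the 9 libraries alone. Bulk footprints cannot tell fewer ribosomes per mRNA from fewer cells making the protein.

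Enzymes that modify collagen followed, with 5 of 16 called lower, 0 higher, and all 16 below 0 (median -1.23). The count was 2 without cycling RNA-seq 1 or treated Ribo-seq 1 and 3 without cycling Ribo-seq 2 or 3 or treated RNA-seq 2. PLOD3, a lysyl hydroxylase, had footprints of 235, 229.8 and 255 against 94.2 and 77.5 CPM while its mRNA was higher in treated cells (64.0 and 75.5 against 42.2 and 54.7 CPM), giving -2.01 ± 0.41 (edgeR adjusted p = 0.00148). LOX, the main lysyl oxidase, was not called (-0.88 ± 0.37, edgeR adjusted p = 0.0921), and was called in the fit to the 9 libraries alone (0.0448). LOXL3, with no treated footprint, had the largest fall of the list, a ratio at least 1.52-fold lower, and CRTAP the smallest, -0.64. Matrix glycoproteins and proteoglycans gave 7 lower and 0 higher calls among 35 (median -0.89), a count that was 3 without cycling RNA-seq 1, treated RNA-seq 2 or treated Ribo-seq 1 4 without cycling Ribo-seq 2 or 3, and 13 in the fit to the 9 libraries alone. HSPG2, the basement membrane proteoglycan perlecan, had 119, 113 and 123 CPM of footprints in cycling and 21.4 and 16.8 CPM in treated cells, against mRNA of 33.5 and 53.7 and of 58.5 and 90.5 CPM. Footprints and mRNA moved in opposite directions, for -3.41 ± 0.58 (adjusted p = 0.000272). FN1, fibronectin, fell on both sides, from 7102, 9561 and 9446 to 1625 and 1653 CPM of footprints and from 3403 and 4541 to 1288 and 1618 CPM of mRNA, and its ratio was not called (-0.96 ± 0.43, adjusted p = 0.117), and was called in the fit to the 9 libraries alone (0.0402). LAMA2 had the largest value, 0.28.

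**Figure D3:**
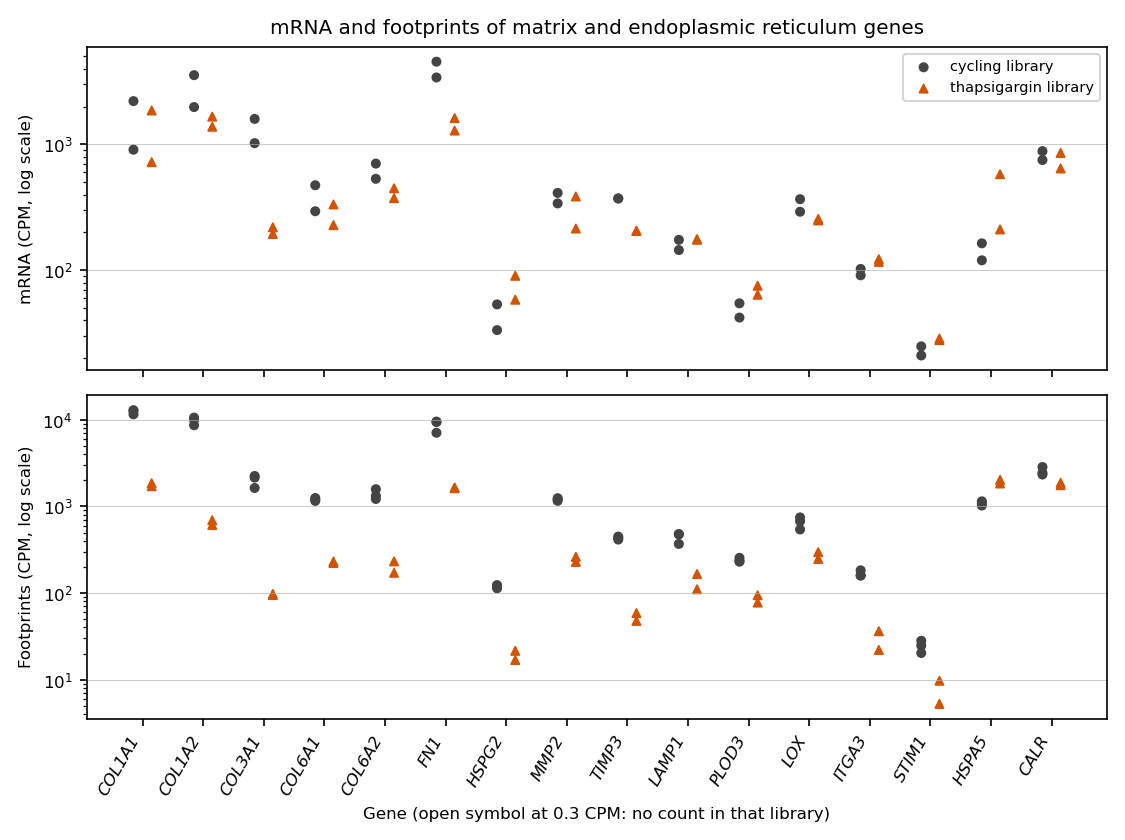
mRNA (top) and footprints (bottom) in CPM on log axes for 16 matrix, secreted, membrane and ER genes; grey circles are cycling libraries, orange triangles treated libraries. For COL1A1, COL1A2, HSPG2, MMP2 and ITGA3 the treated footprints lie well below the cycling ones while mRNA overlaps or lies close; for HSPA5 both sides are higher after treatment and for CALR the change is small.

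Other secreted and lysosomal proteins showed the same direction. Among 33 genes of the senescence-associated secretory phenotype, 8 were called lower and 0 higher (median -0.89). The count was 4 without cycling RNA-seq 2 or treated Ribo-seq 1 and 5 without cycling RNA-seq 1, cycling Ribo-seq 1 or 3 or treated RNA-seq 2. MMP2, a gelatinase, had footprints of 1207, 1245 and 1161 against 229 and 261 CPM and a change of -1.97 ± 0.41 (edgeR adjusted p = 0.00171). TIMP3, an inhibitor of such proteases, went from 449, 434 and 414 to 47.6 and 58.6 CPM, with mRNA of 372 and 372 against 206 and 206 CPM, for -2.17 ± 0.52 (adjusted p = 0.00487). IL1A had no treated footprint and at most 2.72 CPM in cycling cells, and MMP3, the largest value of the list at 1.99 ± 1.40, was carried by 1 treated library (16.2 and 0 CPM). Lysosomal proteins gave 7 lower and 0 higher calls among 29 (median -0.81), and 4 lower calls without cycling RNA-seq 1, cycling Ribo-seq 2 or 3 or treated RNA-seq 2. GAA, acid alpha-glucosidase, fell by 3.53 (adjusted p = 0.000485) and LAMP1, a membrane glycoprotein of the lysosome, by 1.82 (adjusted p = 0.00134), the latter from 369, 476 and 479.9 to 110.4 and 166 CPM of footprints at mRNA of 145 and 175 against 175 and 177 CPM. CTSD, cathepsin D, had 1.60 ± 0.75 with 8.89 and 0.51 CPM in the treated libraries and was not called, though DESeq2 and the fit without treated Ribo-seq 2 did so (adjusted p = 0.0403 and 0.00866).

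In the machinery of the ER itself, most values were below 0 for chaperones (17 of 22) and for ER-associated degradation (14 of 17). Those of stress sensors and regulators (10 of 16 below 0) and of translocation and transport (23 of 42) were more mixed. ER chaperones and folding enzymes had a median of -0.59, with 0 higher and 1 lower call among 22, and 5 lower in the fit to the 9 libraries alone. HSPA5, the chaperone BiP and the best-known target of the unfolded protein response, had 120.2 and 164 CPM of mRNA in cycling and 211 and 580.5 CPM in treated cells, and footprints of 1025, 1091 and 1146 against 1842 and 2026 CPM. Both sides were higher in all treated libraries, the treated mRNA values differed widely, and the ratio change was -0.65 ± 0.56 (edgeR adjusted p = 0.439). CALR (-0.36) and HSP90B1 (0.08), abundant chaperones named for their role, were not called either. ERO1A was the lower call, at an adjusted p of 0.0496 that, of the 9 fits without a library, passed the threshold only without treated Ribo-seq 2, and reached 0.19 without treated Ribo-seq 1. ERO1B had the largest fall (-1.57) and SIL1 the largest rise (0.69), neither called, with ERO1B past the threshold without treated Ribo-seq 1 (adjusted p = 0.0266).

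Sensors and regulators of the unfolded protein response gave 2 higher and 1 lower call among 16 (median -0.23). XBP1, whose mRNA is spliced by IRE1, had 254 and 240.2 against 411 and 408 CPM of mRNA and 49.1, 56.3 and 56.0 against 269 and 369 CPM of footprints. Its ratio rose by 1.84 ± 0.29 (log2, edgeR adjusted p = 0.000156), with a range of 1.56 to 2.02 when 1 library was left out. CREB3, a membrane-bound transcription factor, rose by 1.32 ± 0.20 (adjusted p = 6.96e-05), with mRNA of 97.6 and 94.97 against 124 and 106 CPM. ATF3, another stress factor, rose on both sides alike, from 7.63 and 6.50 to 59.1 and 66.3 CPM of mRNA and from 7.51, 6.80 and 6.87 to 65.4 and 87.7 CPM of footprints, and its ratio was not called (0.29 ± 0.27). BBC3, the pro-death protein PUMA and also a p53 target, was called lower (-2.26) with 0 and 3.57 CPM in the treated libraries. That call was lost without any of 5 libraries: cycling RNA-seq 1 or 2, cycling Ribo-seq 1, treated RNA-seq 2 and treated Ribo-seq 1 (adjusted p up to 0.206).

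ER-associated degradation, which returns misfolded proteins to the cytosol, gave 4 lower (23.5%) and 0 higher calls among 17 tested of 18 (median -0.49). NPLOC4, a cofactor of the ATPase that extracts proteins from the membrane, fell by 1.19. VCP, that ATPase, had level footprints (596, 642 and 599 against 576 and 708 CPM) and higher mRNA (313 and 305 against 516 and 505 CPM), giving -0.66 ± 0.16 (edgeR adjusted p = 0.005). The call of DERL1 (-1.06) was lost in each of the 9 fits without a library, with adjusted p up to 0.0867. FAF2 had the highest value, 0.18. Genes of ER translocation and vesicle transport gave 5 higher and 0 lower calls among 42 (median -0.09). They were SEC24B (0.85) and the coat subunits COPA (0.66) and COPG1 (0.52), and the signal peptidase subunits SEC11A (0.71) and SPCS1 (0.54). There were 3 higher calls without cycling RNA-seq 1 or treated Ribo-seq 1 and 2 without cycling RNA-seq 2. COPG1 was lost without cycling RNA-seq 2, treated RNA-seq 1 or treated Ribo-seq 2 (adjusted p up to 0.133). SEC11A was lost without cycling RNA-seq 1 or 2, cycling Ribo-seq 3, treated RNA-seq 2 or treated Ribo-seq 1 (up to 0.146), and SPCS1 without cycling RNA-seq 1 or 2, treated RNA-seq 1 or either treated Ribo-seq library (up to 0.087). SEC24B and COPA stayed called in 9 of 9 fits without a library, and COPA was lost in the fit to the 9 libraries alone (0.0817). SEC63 had the largest fall (-0.93, not called; adjusted p = 0.0446 without treated RNA-seq 1).

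Genes of the calcium store and of calcineurin, a phosphatase switched on by calcium, split into 3 higher and 3 lower calls among 25 (median -0.29). RCAN1, a feedback inhibitor of calcineurin, had mRNA of 96.1 and 76.1 CPM in cycling and 1189 and 956 CPM in treated cells. Its footprints went from 10.4, 7.02 and 10.1 to 287 and 314 CPM, and the ratio rose by 1.41 ± 0.25 (log2, edgeR adjusted p = 0.000395). ORAI2, a store-operated calcium channel subunit, rose by 1.29 ± 0.34 (adjusted p = 0.00916) and NFATC4, a factor that calcineurin activates, by 1.00. STIM1, the calcium sensor in the ER membrane, had 20.3, 24.6 and 28.0 CPM of footprints against 5.23 and 9.68 CPM and fell by 2.00 (SE 0.47, adjusted p = 0.00411). The plasma membrane pump ATP2B4 (-1.54) and the Golgi pump ATP2C1 (-1.49) were the other lower calls. HDAC9, a histone deacetylase, went in mRNA from 7.99 and 6.05 to 148 and 106 CPM, and its footprints rose alike (3.81, 3.87 and 5.05 against 53.4 and 71.9 CPM), with no ratio call (-0.28 ± 0.41). ORAI3 had no treated footprint and was not called by edgeR, but was by DESeq2 (adjusted p = 0.0426) and without cycling Ribo-seq 2 (0.0344). Leaving out 1 library ended the calls of ORAI2 (treated Ribo-seq 2), NFATC4 (cycling RNA-seq 2 or treated Ribo-seq 1) and ATP2C1 (cycling RNA-seq 1 or treated Ribo-seq 1), with adjusted p up to 0.0666, 0.123 and 0.137, and without treated Ribo-seq 2 the list had 7 lower calls.

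Acute stress genes were mostly uncalled in the ratio. Immediate early transcription factors gave 1 higher and 2 lower calls among 24, with a median mRNA change of 1.02, a median footprint change of 0.84 and a median ratio change of -0.23. IER3, an anti-apoptotic protein, had footprints of 139, 97.4 and 108 against 793 and 764 CPM and rose by 1.29 ± 0.34 (edgeR adjusted p = 0.00915). JUND fell by 1.31, with mRNA higher (102 and 127 against 60.6 and 61.9 CPM) and footprints overlapping (64.6, 43.5 and 49.3 against 29.3 and 49.9 CPM), and KLF10 fell by 0.77, a call kept only without cycling RNA-seq 1, cycling Ribo-seq 2 or treated Ribo-seq 1 and otherwise at adjusted p up to 0.209. FOS had no treated footprint at under 4 CPM in cycling cells. Heat shock proteins gave 1 higher call, HSP90AA1 (0.95), and 4 lower among 19 (median -0.24), and 2 lower without cycling RNA-seq 2, cycling Ribo-seq 3 or treated Ribo-seq 1. The HSP90AA1 call was lost without cycling RNA-seq 1 or 2, cycling Ribo-seq 3, treated RNA-seq 1 or treated Ribo-seq 1 (adjusted p up to 0.16). HSPA1B had no treated footprint against at least 11.96 CPM in each cycling library, and its near-identical copy HSPA1A fell by 1.96 (lost without cycling RNA-seq 2, cycling Ribo-seq 3, treated RNA-seq 1 or treated Ribo-seq 2, adjusted p up to 0.29), so reads of either cannot be assigned with certainty. Of 20 p53 targets, TIGAR was called higher (1.76) and BBC3 lower, with 5 lower calls without treated Ribo-seq 2. Of 10 polyamine genes, the synthesis enzymes ODC1 (-1.32 ± 0.23, adjusted p = 0.000399) and SRM (-1.43) were called lower and AZIN2, an antizyme inhibitor, higher (1.94). The SRM call was lost without treated RNA-seq 2 and that of AZIN2 without treated Ribo-seq 1 (adjusted p = 0.122 and 0.212). Of 17 selenoproteins, TXNRD1 was called higher (0.89) and SELENON lower (-2.76), and SELENOP, the highest value, was at 1 CPM or less of mRNA.

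Housekeeping lists had medians near that of all genes, most with calls on both sides. Actin cytoskeleton and cholesterol synthesis genes had lower calls only. Nuclear-encoded subunits of oxidative phosphorylation gave 8 higher and 8 lower calls among 72 (11.1% each way, against 7.87% higher and 12.9% lower over all genes tested). ATP5PD, a subunit of the ATP synthase stalk, had footprints of 270.3, 286 and 264 against 1267 and 895 CPM and rose by 2.25 ± 0.26 (log2, edgeR adjusted p = 2.48e-06), whereas SDHA had none in treated cells against 2.47 to 5.66 CPM. Mitochondrial ribosomal proteins gave 6 higher and 9 lower calls among 75, with MRPS24 (2.09) and MRPL23 (no treated footprint) at the ends, and proteasome subunits 4 and 4 among 29, with PSMC3 (1.10) and PSMA1 (-1.51). Leaving out 1 library moved these counts to 5 to 11 higher and 5 to 10 lower for oxidative phosphorylation, 3 to 12 and 5 to 17 for mitochondrial ribosomal proteins, and 2 to 6 and 2 to 7 for the proteasome; treated Ribo-seq 2 gave the highest lower counts of the last 2 lists. The call of MRPS24 was kept only without cycling RNA-seq 1, cycling Ribo-seq 1 or treated RNA-seq 2, that of MRPL23 was lost without treated Ribo-seq 1, and that of PSMA1 without treated RNA-seq 1 or treated Ribo-seq 1 (adjusted p up to 0.279, 0.0636 and 0.191). Glycolysis gave 1 higher and 2 lower calls among 19. PKM rose by 0.92 ± 0.22 and LDHB fell by 2.44 ± 0.38, the latter from 48.9, 55.5 and 42.0 to 13.1 and 14.8 CPM of footprints at higher mRNA. Actin cytoskeleton genes gave 0 higher and 2 lower calls among 32. These were CNN3 (-0.83) and ACTB (-0.69, adjusted p = 0.0354), and CNN1 was highest at 0.69. The ACTB call was lost in 6 of 9 fits without a library (without either cycling RNA-seq library, cycling Ribo-seq 1 or 3, treated RNA-seq 2 or treated Ribo-seq 1), with -0.37 and adjusted p = 0.291 without treated RNA-seq 2. DNA replication and mitosis genes gave 2 higher and 1 lower call among 41, with AURKA (1.32) highest and RFC2 (-0.95) lowest. RFC2 was lost without cycling RNA-seq 2, treated RNA-seq 1 or treated Ribo-seq 1 (adjusted p up to 0.145), and 5 genes were called lower without treated Ribo-seq 2. Of 24 cholesterol synthesis genes, whose mRNA had a median rise of 1.06, MVK was called lower (-1.25) and CYP51A1 was highest (0.38).

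**Figure D4:**
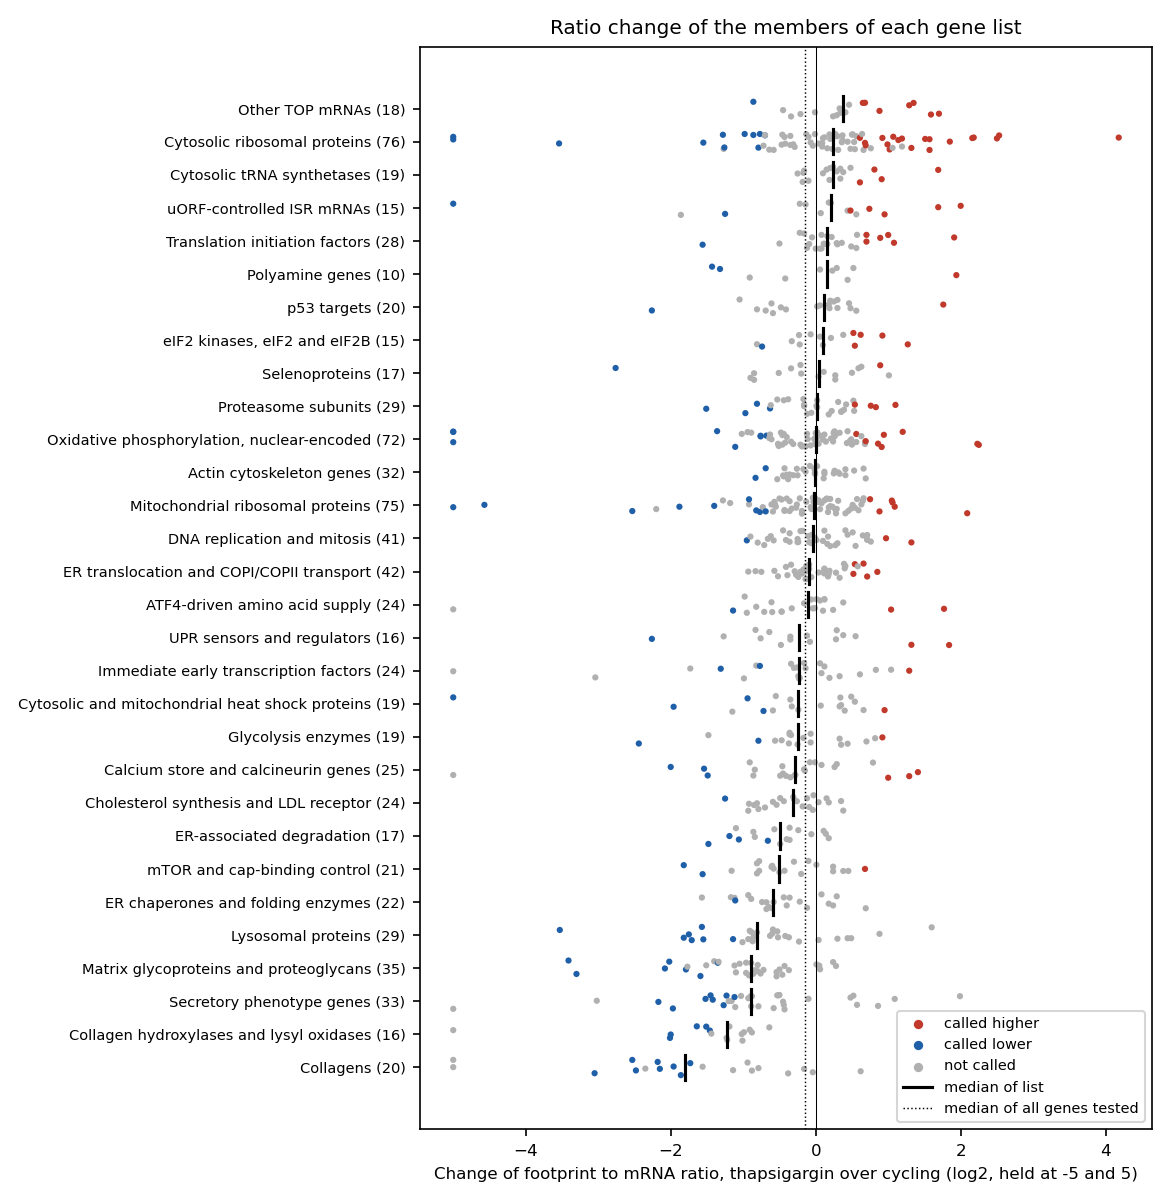
Log2 change of the footprint to mRNA ratio, thapsigargin over cycling, for every tested member of 30 gene lists (number tested in brackets), held at -5 and 5; red and blue points are called higher and lower, bars are list medians, and the dotted line is the median of all genes tested (-0.15). Medians run from -1.80 for collagens to 0.38 for TOP mRNAs outside the ribosome, and the lowest lists hold matrix, secreted and lysosomal proteins.

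The genes with the largest changes were taken as the 12 called rises and 12 called falls furthest from 0 among genes with a mean of at least 5 CPM in both library types. All 12 falls had no footprint in either treated library. They were ITCH, QRICH1, DUSP5, TCTN1, HSPA1B, DENND1B, FAM136A, MFSD6, RPL29, ST3GAL5, HTRA3 and PDGFD. ITCH, a ubiquitin ligase, had 102, 111 and 100.3 CPM of footprints in cycling cells, and its mRNA was 62.2 and 54.6 against 106 and 69.0 CPM. Against the floor of 3 counts its ratio was at least 203-fold lower. For the others the bound ran from at least 5.00-fold (PDGFD) to at least 142-fold (QRICH1), and the call of PDGFD was lost without treated Ribo-seq 1 (adjusted p = 0.0593). In all, 515 tested genes had no footprint in treated cells, 234 of which were called lower, and 70 of the 515 had at least 5 CPM in cycling Ribo-seq. Since the cycling and treated footprints were counted on different gene lists, list and treatment cannot be told apart for these genes.

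Of the 12 rises, DDT, an enzyme related to the cytokine MIF, had no footprint in cycling cells and 19.9 and 16.3 CPM in treated cells, a ratio at least 135-fold higher. MBD3, a subunit of the NuRD complex, had 1.75, 0.86 and 2.15 against 71.1 and 26.5 CPM (4.79 ± 0.56, edgeR adjusted p = 3.84e-06). RAB13, a small GTPase, had 3.09, 5.58 and 6.45 against 84.7 and 33.6 CPM (3.78 ± 0.56), and MOB4 2.68, 1.93 and 2.69 against 16.7 and 27.5 CPM (3.10 ± 0.34). In each, both treated libraries lay above all cycling ones. KRBA2 and ZNF701 differed from these: their footprints were 18.3 and 25.6 CPM in treated replicate 1 and 1.53 and 4.08 CPM in replicate 2. Without replicate 1 their ratio changes were 0.23 and 0.91 and the calls were lost. The remaining rises were CDKN2AIPNL, AMER1, PIF1, INTU, RPL10 and ZNF107, from 2.53 to 2.86, and stayed called in 9 of 9 fits without a library.

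Because low counts set those ends, the largest changes were also listed for genes with at least 50 CPM on average in both library types and at least 10 footprint counts in each treated library, a rule added after the values were seen. The count minimum is set on treated footprints, so by construction it removes falls more than rises. The 12 largest falls were RPL26, HSPG2, COL1A2, TPD52L2, ITGA3, MRC2, TTYH3, COL1A1, PIEZO1, CBR1, CCNI and COL6A2. TPD52L2 had footprints of 445, 471 and 475 against 75.8 and 63.2 CPM at mRNA of 227 and 194 against 232 and 229 CPM (-2.87 ± 0.20, edgeR adjusted p = 3.97e-10). ITGA3, an integrin chain, had 159, 161 and 183 against 21.97 and 36.2 CPM (-2.83 ± 0.43, adjusted p = 9.8e-05). MRC2, a collagen receptor, TTYH3, a membrane protein, and PIEZO1, a mechanosensitive channel, fell by 2.76, 2.54 and 2.45. The 12 largest rises were RPL10, RPL7A, PTMA, TBCA, ATP5MJ, ATP5PD, TAF1D, COX6A1, C12orf57, RPS18, H2BC15 and PRKAA1. PTMA, a small acidic nuclear protein, had 102, 104 and 145 against 379.8 and 336 CPM of footprints with lower mRNA (858 and 773 against 509 and 474 CPM) and rose by 2.34 ± 0.24 (adjusted p = 5.51e-07). TBCA, a tubulin-folding cofactor, rose by 2.33, and PRKAA1, the catalytic subunit of the energy sensor AMPK, by 2.11. C12orf57, like RPL10, changed sign when both strands were counted together (-2.12). Below the level minimum for mRNA, PPP2CA, the catalytic subunit of phosphatase 2A, had 290.4, 288 and 267 against 12.03 and 10.2 CPM of footprints at level mRNA (17.8 and 17.0 against 18.9 and 15.9 CPM), for -4.67 ± 0.25 (adjusted p = 5.52e-12).

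The ratio of treated cells was also set against the mean ratio of 3 other states. These were quiescent cells, cells made senescent by 15 Gy of ionising radiation and cells made senescent by 50 uM etoposide, both over 10 days. No cycling library entered the contrast, but all 27 libraries set the filter, the scaling and the spread. This second comparison shares the treated libraries with the first and is no independent repeat. It called 3418 genes (29.2%), 1226 higher (10.5%) and 2192 lower (18.7%), and with DESeq2 size factors 1647 and 1729. A fit without the cycling libraries called 3029 genes, 1085 higher and 1944 lower. PPP1R15A (1.96), DDIT3 (1.75) and ATF4 (0.59) were called higher, with edgeR adjusted p of 6.84e-07, 1.83e-05 and 0.00513. CREBRF and EPRS1 were not called there (adjusted p = 0.0676 and 0.0823). XBP1 (1.53), CREB3 (1.68), RCAN1 (1.28), SARS1 (1.71), EIF3A (1.71), EEF1B2 (1.58) and ATP5PD (2.23) were called higher. COL1A1 (-2.40), COL1A2 (-3.06), HSPG2 (-3.29), STIM1 (-1.79) and ODC1 (-1.61) were called lower. By list, 9 of 20 collagens were called lower and 0 higher (median -1.66), and 8 of 33 secretory phenotype genes lower and 1 higher (median -0.70). The TOP mRNAs outside the ribosome had 7 higher and 2 lower calls (median 0.30). For PPP2CA the log2 ratio was 4.02 in cycling cells, 4.10 in quiescent and irradiated cells and 4.04 after etoposide, all with Ribo-seq on the smaller gene list, and -0.65 in treated cells.

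**Figure D5:**
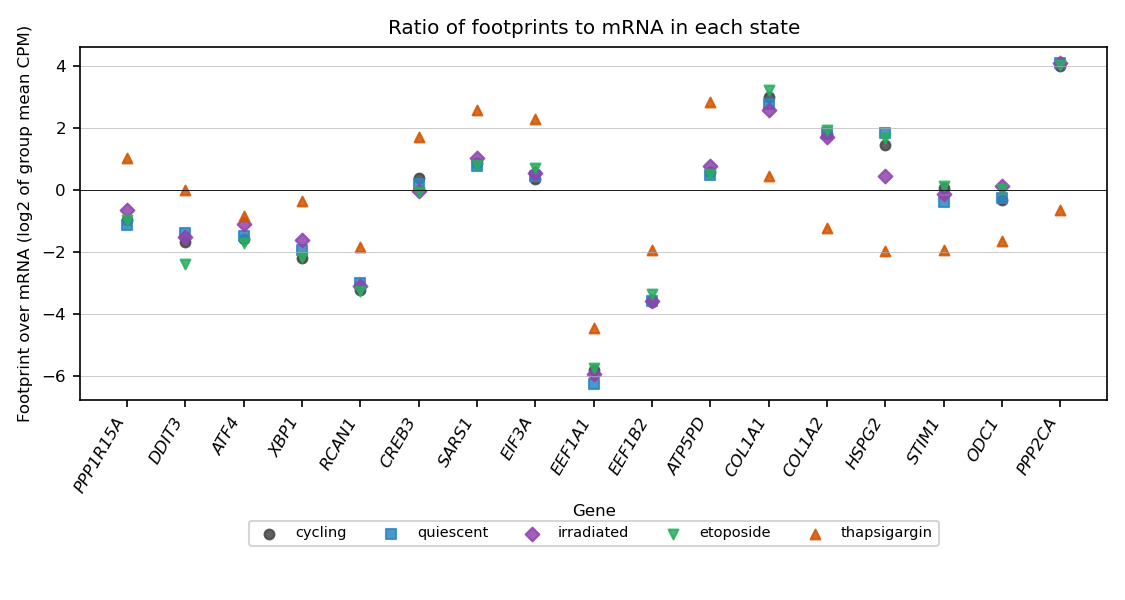
Log2 ratio of mean footprint CPM to mean mRNA CPM for 17 genes in the 5 states, 1 symbol a state; ratios are comparable between states for a gene, not between genes. Thapsigargin (orange triangles) lies above the other 4 states for PPP1R15A, DDIT3, XBP1, SARS1 and EIF3A and below them for COL1A1, COL1A2, HSPG2, STIM1, ODC1 and PPP2CA, and for ATF4 it is close to irradiated cells.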

How the data were processed

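The deposited files hold raw counts of reads per gene, 1 file a library, from the authors' alignment; STAR 2.7.10b, DESeq2 1.36.0 and hg38 are named in the submitters' processing notes. RNA-seq counts came from the reverse strand and Ribo-seq counts from the forward strand. Titles set the library type, since a characteristic calls all thapsigargin libraries protected fragments, and the labels give differing RNase times. Summary lines with no gene name did not enter. Biotypes came from the RefSeq gene table (40535 IDs matched). edgeR 4.0.16 in R 4.3.3 fitted all 27 libraries (10 groups, TMM scaling, filterByExpr in both library types, quasi-likelihood F test, two-sided, Benjamini-Hochberg over 11715 genes), with 17 residual degrees of freedom. Replicates differed beyond sampling noise (chi-square per degree of freedom from 9.04 among the 9 compared libraries and from 1.85 among all). The 2 treated RNA-seq libraries had the highest value of all, 147, against 17.7 for the cycling RNA-seq pair. The fit was tested on simulated counts. Members and lists were chosen with earlier results of these data known. Named genes were the 12 largest called rises and falls at 5 CPM or more, all uORF-controlled genes, each list's ends and 10 fixed names; others were named after their values were seen. The values of 1 gene of these lists are not reported here. Bounds for genes at 0 use a floor of 3 counts over the group and cover counting error only.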

Additional observations from a re-analysis of the deposited data

How the results depend on the processing

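Leaving out 1 library gave 1557 (without cycling RNA-seq 1) to 3769 (without treated Ribo-seq 2) changed genes in place of 2430, and 2728 to 4357 in place of 3418 against the other states. A fit to the groups compared alone, with fewer libraries to set the spread, gave 1053; the other settings stayed within 1.5 times. Of 3246 single-gene values under alternatives, 2970 kept direction and call, 232 lost the call, 19 gained it and 25 changed sign; the cause of sign changes was not tested. With both strands counted together, C12orf57 was -2.12, CEBPB -0.32, EIF4B 0.38 and RPL10 -2.35; with all gene types, HSP90B1 was -0.01 and SLC35A4 -0.02. Over fits without 1 library, genes that changed sign ranged as follows, all uncalled in the report: ASNS -0.39 to 0.77, COL13A1 -0.28 to 1.13, CTSD -1.60 to 2.51, CYP51A1 -0.06 to 0.67, FAF2 -0.07 to 0.35, HDAC9 -0.54 to 0.02, HSP90B1 -0.22 to 0.27, HSPA5 -1.16 to 0.29, IMPACT -0.30 to 0.13, LAMA2 -0.35 to 0.67, MMP3 -8.37 to 2.97, SELENOP -6.72 to 1.95, SLC35A4 -0.25 to 0.59 and SLC7A1 -0.60 to 0.34. With a replicate block of state by number 2065 genes were called, and 3252 against the other states; numbers paired RNA-seq and Ribo-seq libraries in 6 of 13 pairs only (correlation of deviations above 0.1), so no pairing was assumed. With the block, lower calls were 15 for collagens, 17 for matrix, 10 for hydroxylases, 11 for lysosomal, 12 for secretory phenotype and 5 for ER chaperone genes, and FN1, LOX and COL15A1 were called (adjusted p = 0.00828, 0.0212 and 0.0135). The fit to the groups compared alone ended the calls of 36 named genes, ACTB, AARS1, CREBRF, EPRS1 and MTOR among them. The low depth of treated Ribo-seq limits sparse genes most.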

Other observations

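Genes that share the leading letters of their symbol gave a view that uses no chosen list, made after the values were seen and given as values with no test. Among 56 such stems with at least 20 tested genes, COL had the lowest median log2 ratio change (-1.65 over 24 genes, with 8 lower and 0 higher calls). SLC, the solute carriers of membranes, had a median of -0.31 over 207 genes, with 29 lower and 7 higher calls, and TMEM, membrane proteins named for their spans, -0.30 over 153 genes with 11 lower and 6 higher. These counts moved with single libraries: SLC had from 12 lower calls (without cycling RNA-seq 1) to 47 (without treated Ribo-seq 2), and TMEM from 8 (without either cycling RNA-seq library or cycling Ribo-seq 3) to 34 (without treated Ribo-seq 2), and 13 higher without treated RNA-seq 1. The 132 SLC genes with at least 10 footprint counts in each treated library had a median of -0.18, with 7 lower and 6 higher calls. The 97 such TMEM genes had -0.06, with 6 lower and 3 higher. All 8523 such genes had -0.03, with 788 lower and 823 higher. The minimum is set on treated footprints, so by construction it removes falls more than rises. At the other end, TAF, subunits of the general transcription factor TFIID and related complexes, had 0.24 over 22 genes with 5 higher and 2 lower calls. DDX, RNA helicases, had 0.19 over 32 genes with 7 higher (21.9%) and 1 lower call. MED, subunits of the Mediator complex, had 0.17 over 28 genes with 6 higher (21.4%) and 0 lower calls, against 7.87% higher over all genes tested. METTL (0.24, 2 higher and 3 lower calls), ARL, GTF and RPL had medians between those of TAF and MED. EIF gave 13 higher and 4 lower calls among 48 genes.

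The zinc finger genes under the stem ZNF were the most numerous, with 72 higher and 36 lower calls among 432 genes, or 16.7% higher against 7.87% of all genes tested, and a median of 0.12. Their median depended on a single library: it was -0.20 without treated Ribo-seq replicate 2, with 101 higher and 90 lower calls, and 0.10 without replicate 1, with 55 higher and 32 lower. The median of all genes moved from -0.15 to -0.30 in the fit without replicate 2. Many zinc finger genes are sparse, and 211 of the 432 had at least 10 footprint counts in each treated library. These had a median of 0.36, with 53 higher and 9 lower calls. That minimum is set on treated footprints, so by construction it removes falls more than rises. Over all 8523 genes that passed it the median was -0.03, against -0.15 for all genes tested. The values of the 211 genes are therefore no separate support for a rise.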
